A study of Homo sapiens with 6 samples.

Results

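The S100 genes encode small calcium-binding proteins, and 10 of them were examined here in the H3K27ac landscape of SU-CCS-1. They were S100B on chromosome 21 and S100A1, S100A4, S100A6, S100A8, S100A9, S100A10, S100A11, S100A13 and S100A16 on chromosome 1, out of 21 S100 genes and 20015 protein-coding genes of the annotation. The genes were chosen by name, and a peak was assigned to a gene when it overlapped the gene body or lay within 20 kb of it. This gave 15 of the 30784 peaks of the series, 13 for the 9 genes on chromosome 1 and 2 for S100B. SU-CCS-1 is an established human clear cell sarcoma (CCS) line with the fusion oncogene EWSR1::ATF1, which was carried by all 6 samples. Chromatin immunoprecipitation and sequencing (ChIP-seq) was performed with an antibody against H3K27ac on 3 samples, and 3 samples were input chromatin. The samples had no treatment label, and all came from this cell line. A merged list of peaks, with no score and no value per sample, was the only readout, so no value below carries a replicate error and no test was made.

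H3K27ac is acetylation of lysine 27 of histone H3, a mark of active promoters and enhancers. S100 proteins bind calcium through EF-hand motifs, mostly as dimers, and the bound form attaches to partner proteins such as annexins or myosin. Several are also released from cells and act on the receptor AGER (RAGE). In humans most S100 genes lie together on the long arm of chromosome 1, in the epidermal differentiation complex, whereas S100B lies by itself near the end of chromosome 21. S100B protein is abundant in Schwann cells, melanocytes and astrocytes, and pathologists stain for it when they diagnose melanoma and CCS.

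Of the 10 S100 genes, 7 had a promoter peak, defined as any base of a peak within 3 kb of any annotated transcript start. They were S100B, S100A1, S100A6, S100A10, S100A11, S100A13 and S100A16. The same was true of 63.4% of all protein-coding genes, so the share among the S100 genes was near the background. S100A4, S100A8 and S100A9 had none. The start regions of these genes differed in sequence, and 6 of them are printed here as examples. Each line gives the 250 bases before a RefSeq start (GRCh38.p14), read 5′ to 3′ on the strand of the gene. Capitals mark a match to TATAAA, the TATA box, or to CATGTG, a form of the E-box that MITF and related factors bind. The first 3 lie wholly inside an H3K27ac peak and the last 3 wholly outside any peak.
S100A10, chr1:151993860-151994109, minus strand: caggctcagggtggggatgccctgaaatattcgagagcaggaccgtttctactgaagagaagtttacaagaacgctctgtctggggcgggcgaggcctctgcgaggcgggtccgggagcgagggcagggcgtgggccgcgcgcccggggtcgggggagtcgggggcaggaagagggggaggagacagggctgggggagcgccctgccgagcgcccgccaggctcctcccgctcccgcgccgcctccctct
S100A11, chr1:152037005-152037254, minus strand: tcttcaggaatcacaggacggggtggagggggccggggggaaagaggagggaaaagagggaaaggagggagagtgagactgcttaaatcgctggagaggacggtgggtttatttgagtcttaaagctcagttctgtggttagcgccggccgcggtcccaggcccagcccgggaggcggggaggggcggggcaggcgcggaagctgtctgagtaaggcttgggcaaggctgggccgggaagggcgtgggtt
S100A16, chr1:153609356-153609605, minus strand: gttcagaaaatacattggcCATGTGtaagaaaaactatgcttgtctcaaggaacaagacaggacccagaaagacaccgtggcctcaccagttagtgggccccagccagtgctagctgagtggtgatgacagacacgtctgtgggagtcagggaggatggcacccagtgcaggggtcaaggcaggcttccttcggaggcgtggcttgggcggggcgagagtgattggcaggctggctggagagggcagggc
S100A4, chr1:153545807-153546056, minus strand: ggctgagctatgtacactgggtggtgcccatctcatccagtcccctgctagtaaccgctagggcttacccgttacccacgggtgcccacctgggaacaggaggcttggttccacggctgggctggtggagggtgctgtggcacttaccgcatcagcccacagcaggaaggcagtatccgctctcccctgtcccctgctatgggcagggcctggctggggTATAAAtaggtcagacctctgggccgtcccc
S100A8, chr1:153391074-153391323, minus strand: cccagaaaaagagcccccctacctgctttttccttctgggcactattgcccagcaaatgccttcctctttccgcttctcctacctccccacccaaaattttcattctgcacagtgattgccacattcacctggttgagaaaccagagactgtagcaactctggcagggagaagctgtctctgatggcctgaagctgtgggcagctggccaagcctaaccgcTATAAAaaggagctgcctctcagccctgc
S100A9, chr1:153357604-153357853, plus strand: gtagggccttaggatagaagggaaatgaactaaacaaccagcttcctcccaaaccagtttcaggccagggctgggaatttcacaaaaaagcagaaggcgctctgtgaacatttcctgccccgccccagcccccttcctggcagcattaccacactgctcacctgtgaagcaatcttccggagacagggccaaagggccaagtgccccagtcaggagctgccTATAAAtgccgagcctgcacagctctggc

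The S100A10 stretch held 24 CpG dinucleotides and the S100A11 stretch 15, whereas the S100A4, S100A9 and S100A8 stretches held 7, 4 and 2. The S100A16 stretch, although inside a peak, held 6, fewer than that of S100A4. The CpG ratio, which is the observed number over the number expected from the base composition, was 0.786 at S100A10 and 0.741 at S100A11. It was 0.305 at S100A16, 0.284 at S100A4, 0.21 at S100A9 and 0.12 at S100A8. The stretches of S100A4, S100A8 and S100A9 each carried TATAAA, beginning 31, 29 and 29 bases before the start. The canonical S100A13 entry, which lay inside a peak and is not printed, also carried TATAAA 29 bases before its start. RefSeq promoters were matched for 9 of the 10 genes, with 14 start entries in all, and S100B was the gene without an entry.

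The regions at S100B are shown by the central 200 bases of its 2 peaks, in hg38 on the plus strand with CpG dinucleotides in capitals, because both lay outside the gene body and neither covered a start site. The peak nearest to S100B held 8 CpG in these bases, and the distal peak 2. Over their whole width the 2 peaks were alike, with CpG ratios of 0.244 and 0.235, against a median of 0.407 over all peaks.
S100B near peak, chr21:46605766-46605965: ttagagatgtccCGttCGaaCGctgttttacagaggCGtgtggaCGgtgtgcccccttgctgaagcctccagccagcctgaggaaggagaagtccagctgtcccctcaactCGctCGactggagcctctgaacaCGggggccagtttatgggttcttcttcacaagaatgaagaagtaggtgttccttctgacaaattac
S100B distal peak, chr21:46621901-46622100: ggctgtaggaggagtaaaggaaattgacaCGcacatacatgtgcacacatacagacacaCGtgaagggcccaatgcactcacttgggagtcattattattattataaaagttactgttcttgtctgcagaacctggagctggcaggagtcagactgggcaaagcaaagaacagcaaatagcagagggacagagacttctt

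S100B lay at chr21:46598604-46605208 on the minus strand, 105 kb from the end of the chromosome. Its near peak (chr21:46605361-46606370, 1010 bases) began 279 bases upstream of the canonical start and 153 bases upstream of the outermost start. It was the narrowest of the 9 peaks that lay within 3 kb of a start of the 10 genes. None of the 3 annotated S100B starts fell inside a peak, and no base of the gene body was covered. The distal peak (chr21:46620261-46623740) measured 3480 bases, at the 94.6 percentile of width in the list, and lay in intergenic sequence. It was 15.2 kb upstream of the canonical S100B start and 11.9 kb from the nearest start of PRMT2, which encodes an arginine methyltransferase. Because the distal peak lay nearer to PRMT2 than to S100B, its assignment to S100B rested on the 20 kb rule, and no contact between them was measured. The 2 peaks were separated by 13.9 kb and together covered 9.63% of the S100B window, the gene body with 20 kb on each side. This share ranked at the 86.1 percentile of all protein-coding genes, but their windows differ in length, as longer genes have longer windows. Most of the peak width in this window was away from the S100B promoter, but within 10 kb of the body the near peak, 1.01 kb, was the only one.

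**Figure D1:**
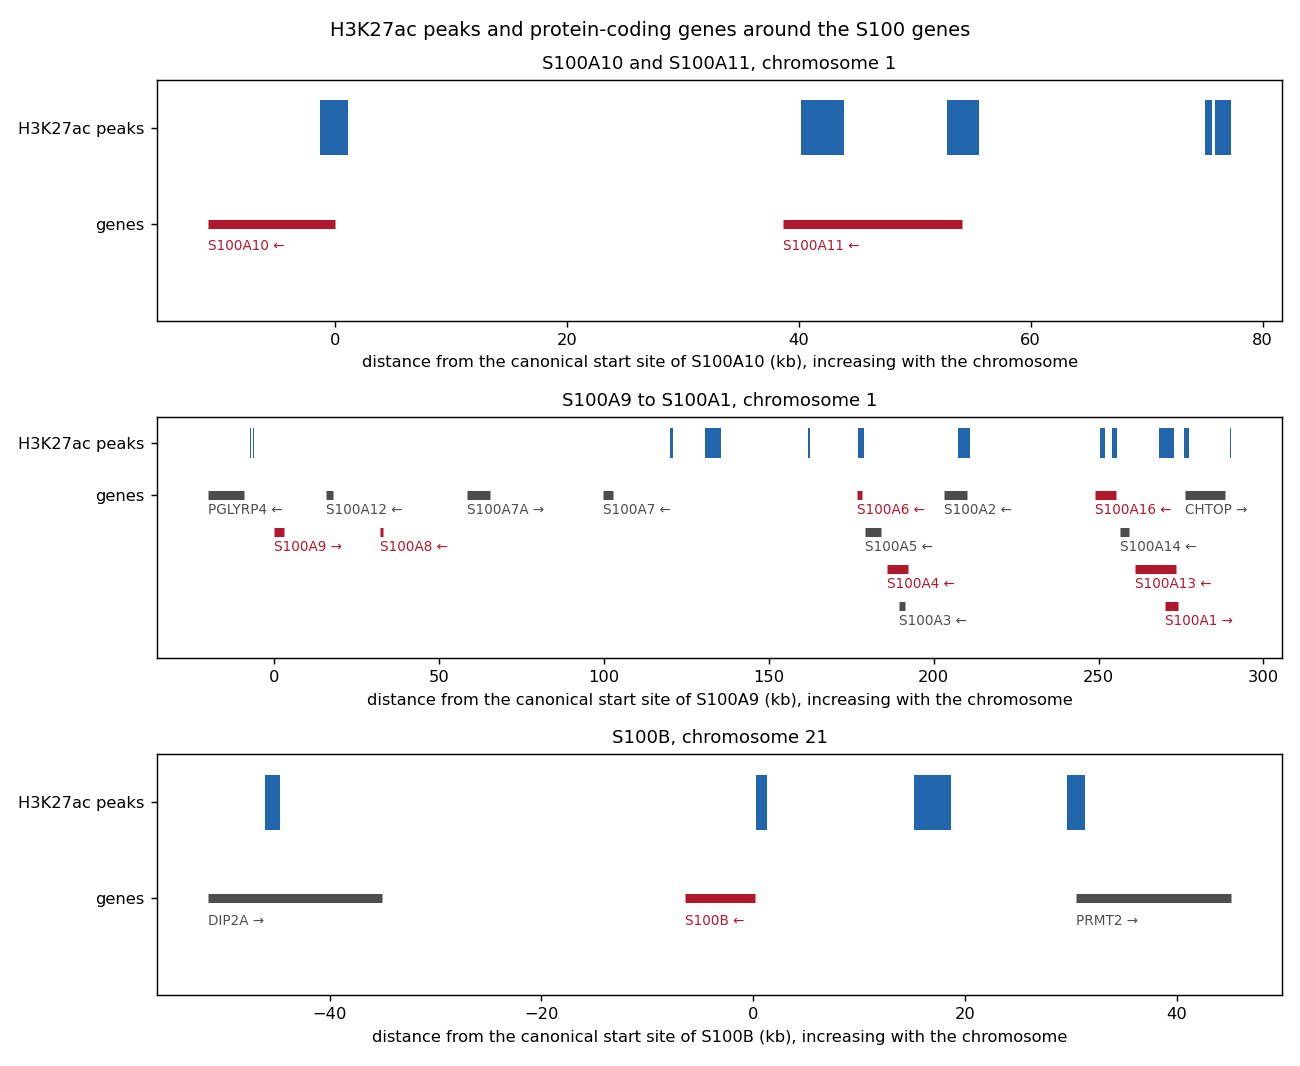
H3K27ac peaks (blue) and protein-coding genes (the 10 S100 genes in red, others in grey, arrows for the direction of transcription) against distance in kb in 3 panels. S100A10 and S100A11 carry peaks over their starts, the stretch from S100A9 to S100A7 holds none, and the S100B near peak stops short of the gene, with the wider distal peak 15.2 kb upstream of its canonical start.

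On chromosome 1, 6 of the 9 S100 genes had a promoter peak, and in all 6 a start lay inside the peak. Over the 10 genes, 6 had an annotated start inside a peak, against 58.2% of all protein-coding genes, and the same 6 had the canonical start inside a peak, against 53.5%. Of the 37 annotated start sites of the 10 genes, 24 were inside a peak, 4 were outside but within 3 kb of a peak, and 9 were farther away. The same share over all annotated start sites was not computed. Several starts of a gene often fell in the same peak, so this count of sites cannot be read as high or low. The 4 sites within 3 kb were the 3 of S100B and the outermost start of S100A13, which was 0.77 kb from the nearest peak. S100B was thus the only gene of the 10 with a promoter peak and no start within it.

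S100A1 and S100A13 shared the widest of the 15 peaks (chr1:153626131-153630590). S100A1, a regulator of calcium handling in heart and skeletal muscle, and S100A13, which takes part in the unconventional release of FGF1, overlap each other on opposite strands. The peak measured 4460 bases, had rank 870 by width in the whole list and had its midpoint in an intron of S100A1. It covered all 5 annotated starts of S100A1 and 5 of the 6 of S100A13. Peaks filled 64.8% of the S100A1 body and 35.5% of the S100A13 body. Which of the 2 genes the acetylation belongs to cannot be told apart from overlapping bodies. A second peak of 1290 bases (chr1:153633871-153635160) covered the start of CHTOP, a chromatin protein gene, and lay within 3 kb of the outermost S100A13 start.

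S100A16, a broadly expressed member with an atypical EF-hand, had starts in 2 peaks. The peak at chr1:153611991-153613400 (1410 bases) covered the canonical start and 1 more, and the peak at chr1:153608191-153609820 (1630 bases) covered the other 3. The S100A16 stretch printed above lay in the second of these. S100A14 began within 3 kb of the first. The bodies of S100A16 and S100A6 were covered for 44.5% and 72.5% of their length, and S100A6 had the highest share of the 10 genes. Over all protein-coding genes the median share was 1.45% and the upper quartile 6.06%. The share depends on gene length, and the S100A6 body measured 1.65 kb, against 10.9 kb for S100A10. S100A6, also known as calcyclin, had all 3 starts inside a peak of 1740 bases (chr1:153535051-153536790).

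S100A10 and S100A11 lie apart from the other S100 genes of chromosome 1. S100A10 (p11), which binds annexin A2 and has lost the ability to bind calcium, carried a single peak of 2430 bases (chr1:151992571-151995000) over all 4 of its starts. S100A11, an annexin A1 partner, had 2 starts and a wide peak at each. The peak at its canonical start measured 3730 bases (chr1:152034021-152037750), and that at its upstream start measured 2780 bases (chr1:152046621-152049400). The S100A11 body was covered for 32.6% and the S100A10 body for 11.8%.

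S100A4, S100A8 and S100A9 had no peak within 3 kb of a start, and no base of their bodies was covered. S100A4 encodes a partner of non-muscle myosin IIA that is known for its link to metastasis. Its canonical start was 9.02 kb from the nearest peak, which was the promoter peak of S100A6. S100A8 and S100A9 form calprotectin, the main calcium-binding protein complex of neutrophils. The canonical start of S100A9 was 5.97 kb from the nearest peak and that of S100A8 was 39.2 kb away. The 2 peaks in the S100A9 window were narrow, 520 and 430 bases, and lay 1.68 and 2.61 kb from PGLYRP4, a peptidoglycan recognition protein gene, within 3 kb of its start. S100A8 was the only gene of the 10 with no peak in its window. A peak in the window was found for 9 of the 10 genes, against 75.8% of all protein-coding genes. Genes outside the list either stayed under the calling threshold or were filtered later, which is not proof that acetylation was lacking.

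**Figure D2:**
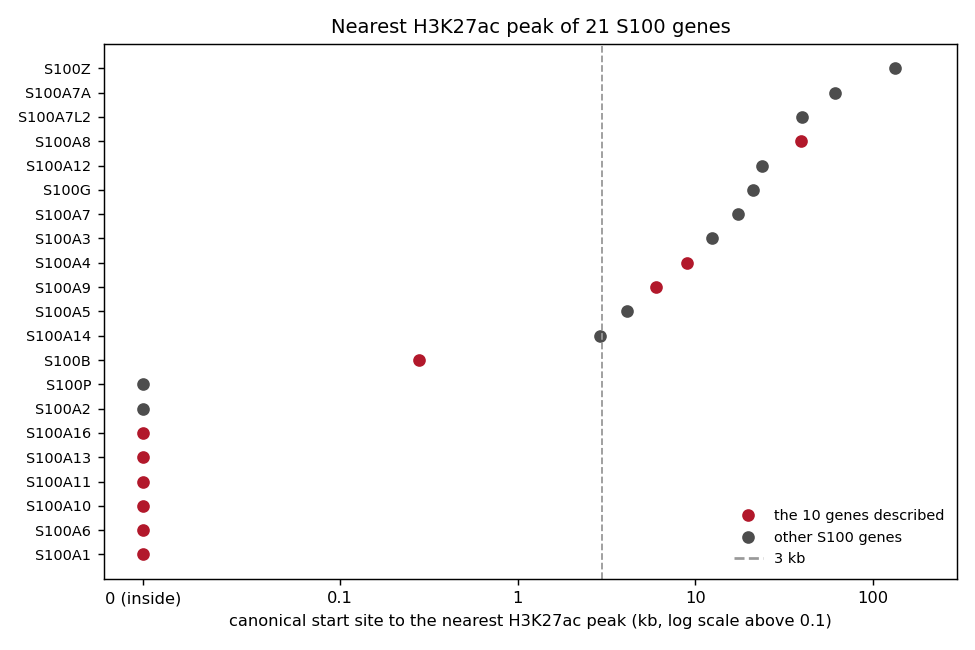
Distance in kb from the canonical start site of each of 21 S100 genes to the nearest H3K27ac peak, on a scale that is logarithmic above 0.1 kb. Points at 0 are starts inside a peak, which include 6 of the 10 genes described (red), while S100B is 0.279 kb, S100A9 5.97 kb, S100A4 9.02 kb and S100A8 39.2 kb from a peak.

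Coverage of the window gave another order of the genes. S100A1 led with 20.9% of its window in peaks, followed by S100A13 with 17.5%, S100A16 with 16.2%, S100A4 with 12%, S100A11 with 11.8% and S100B with 9.63%. S100A6 with 5.38% and S100A10 with 4.77% lay between the median and the upper quartile of all protein-coding genes, which were 2.24% and 5.78%. S100A9 with 2.2% lay at the median, and S100A8 was at 0. The median of the 10 genes was 10.7%. Longer genes have longer windows, so the shares of the 10 genes and of all protein-coding genes were not compared at equal window length. These values were not independent, because 6 of the 15 peaks were counted in the windows of 2 or more of the genes. The value of S100A4 came wholly from the promoter peaks of S100A6 and S100A2, so window coverage and promoter acetylation disagreed for this gene.

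**Figure D3:**
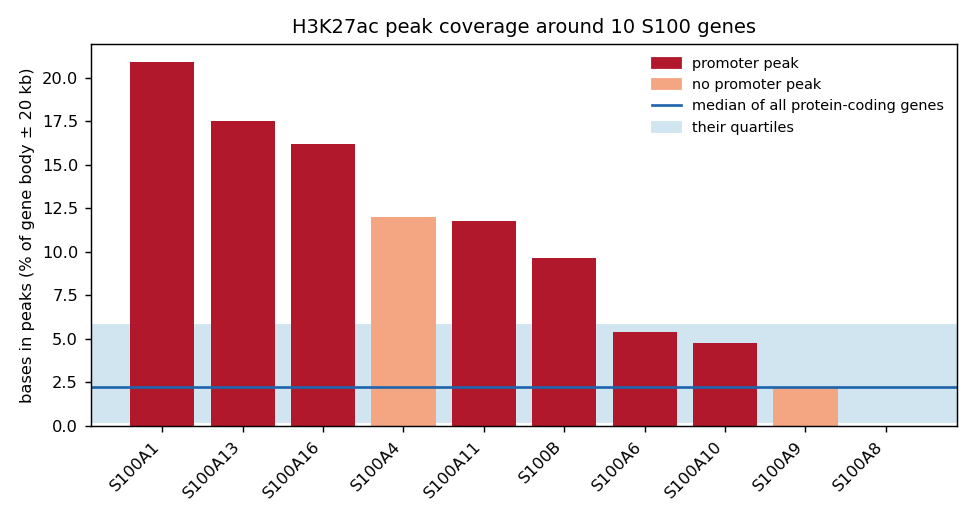
Percent of the gene body with 20 kb on each side that lay in H3K27ac peaks, for the 10 S100 genes ordered by value, with the median (2.24%) and quartiles (0.209% and 5.78%) of all protein-coding genes. The bars run from 20.9% for S100A1 to 0 for S100A8, and S100A4 reaches 12% without a promoter peak.

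The 15 peaks were between 430 and 4460 bases wide, with a median of 1630 bases, and 10 of them were wider than the list median of 1060 bases. The 9 peaks within 3 kb of a start of the 10 genes had a median of 1740 bases, and 8 of the 9 exceeded the median of all promoter peaks, 1270 bases. The exception was the near peak of S100B. Of these 9, 6 also lay within 3 kb of a start of another gene, among them S100A14, CHTOP and several long noncoding RNA genes. The 6 remaining peaks had a median of 510 bases, with the S100A2 promoter peak of 3830 bases and the S100B distal peak as the wide ones. Of these 6, 3 lay within 3 kb of a start of another gene (S100A2 or PGLYRP4) and 3 of no gene. The 3 with no start nearby were the S100B distal peak, a peak of 500 bases in the S100A6 window and a peak of 430 bases in the windows of S100A1 and S100A13.

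The 20 kb limit left out a peak of 600 bases that was 20.9 kb from S100A11. The nearest peak outside the S100A16 window was 20.7 kb away and was counted for S100A1 and S100A13, while the farthest peaks inside were 18.1 kb from S100A1 and 16.3 kb from S100A13. For S100B, the farthest peak inside was 15.1 kb from the body and the next was 29.5 kb away.

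Along chromosome 1 the peaks came in separate blocks. From S100A10 to S100A11, 65 kb held 3 peaks that covered 11.5%. The next 1.31 Mb up to S100A9 held 7 peaks, the upstream S100A11 peak included, or 5.34 per Mb against 11.4 per Mb for the whole chromosome, and they covered 0.409%. This stretch holds the cornified envelope and filaggrin genes of the epidermis. Of its 47 protein-coding genes, 2 had a promoter peak, the late cornified envelope gene LCE2A and PGLYRP4, against 63.4% of all protein-coding genes. From S100A9 to S100A7, 103 kb with 5 protein-coding genes held no peak. Between S100A7 and S100A6, 73.95 kb held 4 peaks and no protein-coding gene. From S100A6 to S100A1, 97.4 kb held 5 peaks that covered 13.4%. There 6 of 9 genes had a promoter peak, a share near the 63.4% of all protein-coding genes. One of them, S100A14, had no start inside a peak. The S100 genes with promoter peaks thus stood on both sides of a sparse stretch, and S100A8 and S100A9 lay on its far edge next to S100A12, S100A7A and S100A7. The longest gaps between peaks were 651 and 627 kb inside the epidermal genes and 126 kb across S100A9, S100A8 and S100A7. Chromosome 21 had 10.2 peaks per Mb.

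**Figure D4:**
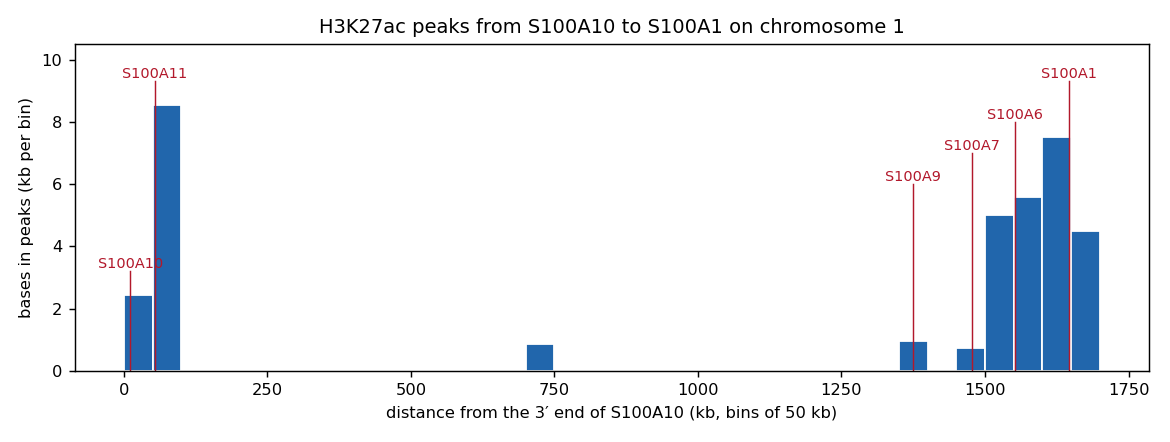
Bases in H3K27ac peaks (kb) per bin of 50 kb along chromosome 1, from the 3′ end of S100A10 to beyond S100A1, with red lines at the canonical starts of 6 S100 genes. The high bins sit at S100A10 and S100A11 and beyond S100A7 up to S100A1, and the bins at 700, 1350 and 1450 kb hold 0.87, 0.95 and 0.72 kb.

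Joining neighbouring peaks at the stitching distance of the study, the default of the super-enhancer program ROSE and a little under the 13.9 kb between the S100B peaks, placed the 15 peaks in 10 of 17049 regions. In the absence of any signal column, the total width of its peaks set the rank of each region, and 879 regions, each of at least 7.99 kb, lay past the point where the ranked curve reached a slope of 1. Such a region over the body was found for 2 of the 10 genes, S100A1 and S100A13, against 7.58% of all protein-coding genes. It was the same region for both (chr1:153626131-153672250), with 6 peaks, 8.95 kb of summed width and rank 734, and it also overlapped CHTOP, SNAPIN and ILF2. It was held together by a gap of exactly the stitching distance. When that distance was made 10 bases shorter, a setting added after the data were seen, the region split and no region with a peak of the 10 genes passed the point. The S100A11 region (6.51 kb) had rank 1228. The S100B distal peak joined a peak at PRMT2, with 5.18 kb in all and rank 1751, and the S100B near peak stayed by itself at rank 12119. At 15 kb, also added later, the S100B peaks joined into a region of 3 peaks with 6.19 kb and rank 1389.

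The study examined TGACGTCA, the ATF/CREB site, its flexible form TGANNTCA and TGAGTCA, the AP1 site, in EWSR1::ATF1 binding sites, not in H3K27ac peaks. In its human cell lines the AP1 site was not among the significant motifs. Here the letters were searched on both strands over the whole width of the 15 H3K27ac peaks, and binding of the fusion was not examined. TGACGTCA is itself a form of TGANNTCA, and TGAGTCA differs from both in its spacer. TGACGTCA had no match in the 29.67 kb of S100 peaks, where 2.58% of all peaks held it, at 0.0191 matches per kb. TGANNTCA had 19 matches in 7 of the 15 peaks, 0.64 per kb against 0.466 per kb over the list, in which 40.8% of peaks held it. TGAGTCA had 8 matches in 5 of the 15 peaks, 0.27 per kb against 0.15 per kb, and 16.8% of all peaks held it. The S100B near peak had no match of any of the 3 motifs, and its distal peak had 2 of TGANNTCA. The S100A2 promoter peak had 8 matches and the upstream S100A11 peak 7, so that these 2 peaks held most of the 27.

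A few of the matches are shown with 30 bases on each side, in hg38 on the plus strand with the motif in capitals, to set a TGANNTCA match at S100B beside AP1 letters at S100A11 and S100A2.
S100B distal peak, chr21:46620654-46620661: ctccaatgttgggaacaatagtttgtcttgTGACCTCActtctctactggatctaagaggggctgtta
S100A11 upstream peak, chr1:152048265-152048271: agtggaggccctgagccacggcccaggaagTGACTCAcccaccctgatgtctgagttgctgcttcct
S100A2 promoter peak, chr1:153565890-153565896: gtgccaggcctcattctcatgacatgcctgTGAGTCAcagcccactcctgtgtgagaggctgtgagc

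Promoter composition varied among the S100 genes with a peak. Of the 14 RefSeq start entries of the 10 genes, 9 lay wholly inside a peak and 5 wholly outside. Inside a peak, the CpG ratio was 0.803 at S100A6, 0.786 at S100A10 and 0.741 at S100A11, and 0.838 at the outermost S100A13 entry, which lay in the CHTOP peak. This RefSeq start lay beyond the annotated S100A13 body and is not the outermost annotated start above, which was outside any peak. The 4 ratios exceeded the median of all 35116 RefSeq promoters, 0.558. The other 5 entries inside a peak lay below it, with 0.407 and 0.358 at the inner S100A13 starts, 0.305 and 0.0496 at S100A16 and 0.235 at S100A1. The 5 entries outside peaks, from S100A4, S100A8 and S100A9, lay between 0.111 and 0.284. A low CpG ratio was therefore found on both sides, and a ratio above the median was found only in entries inside a peak. TATAAA was found in entries of S100A4, S100A8, S100A9 and S100A13, of which the canonical S100A13 start was inside a peak, and in 10.7% of all RefSeq promoters. TGACGTCA, TGANNTCA and TGAGTCA had no match in any of the 14 entries, against 1.65%, 10.1% and 4.2% of all promoters. The 14 entries came from 9 genes, and those of S100A8 overlap each other. The lack of matches therefore rests on few separate stretches and cannot be read as a depletion. Of the E-box forms, CACGTG had no match (6.34% of all promoters), and CATGTG was found at S100A16 and at the outermost S100A13 entry (9.42%).

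**Figure D5:**
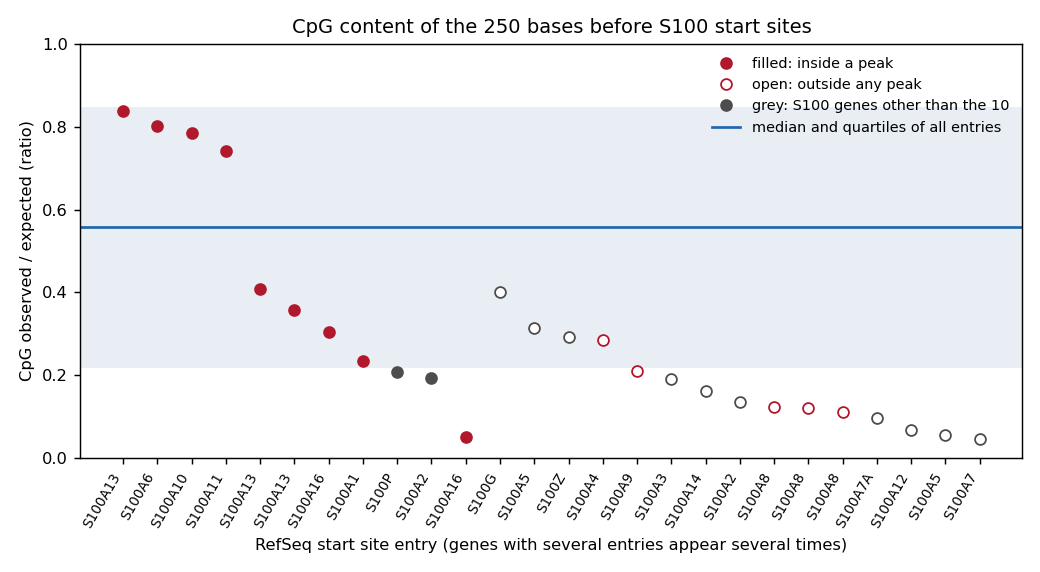
Ratio of observed to expected CpG in the 250 bases before each RefSeq start entry of the S100 genes, with the median (0.558) and quartiles (0.22 and 0.845) of all 35116 promoters. Entries inside a peak (filled) reach from 0.838 at S100A13 to 0.0496 at S100A16, and those of S100A4, S100A8 and S100A9 (open, red) stay at or below 0.284.

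Among the other 11 S100 genes, 3 had a promoter peak, namely S100A2, S100A14 and S100P, against 63.4% of all protein-coding genes. S100A14 had no start inside a peak and dropped out with a promoter window of 1 kb, which left 2. The remaining 8 had none, and the median window coverage of the 11 was 1.68%. Of these, S100A7L2 is annotated as a pseudogene. S100P, a placental and epithelial member on chromosome 4, had 29.1% of its window in peaks, above any of the 10 genes. S100A5, which lies between S100A6 and S100A4, had its canonical start 4.14 kb from a peak. S100A12, a neutrophil protein gene beside S100A8, was 23.7 kb from a peak. The 7 genes that fuse an S100 domain to a long repeat, FLG, FLG2, HRNR, RPTN, CRNN, TCHH and TCHHL1, had no promoter peak, with distances from 17.9 kb (TCHHL1) to 289 kb (FLG2). The share over all protein-coding genes was 63.4%. All 7 lie in the sparse stretch between S100A11 and S100A9, where 2 of 47 genes had a promoter peak, so they repeat the result for that stretch.

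Known partners and receptors of S100 proteins had a promoter peak in 13 of 19 cases, a share near the 63.4% of all protein-coding genes. ANXA2, which binds S100A10, MYH9, which binds S100A4, and CACYBP and ANXA11, which bind S100A6, were among them. AGER, the receptor of several S100 proteins, counted through a peak near a start other than the canonical one, which was 4.04 kb from a peak. ANXA1, RYR1, FGF1, SYT1, TLR4 and CD36 had none. TLR4 is a receptor of calprotectin, FGF1 is the growth factor released with S100A13, and ANXA1 is the partner of S100A11.

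Marker genes were listed to check the label of the line. A promoter peak was found for 6 of 8 melanocytic genes (SOX10, MITF, PMEL, MLANA, DCT and S100B, but not TYR or TYRP1). This was near the 63.4% of all protein-coding genes, and S100B is itself one of the 10 genes described. An annotated start lay inside a peak for 4 of the 8, against 58.2% of all protein-coding genes. None of 5 myeloid, 5 keratinocyte, 4 fibroblast and 4 skeletal muscle genes had a promoter peak. A peak in the window was still found for 4 of the myeloid, 1 of the keratinocyte and 1 of the fibroblast genes, against 75.8% of all protein-coding genes. The start of KRT10, a keratinocyte gene, was 3.35 kb from a peak, just beyond the limit. S100A8 and S100A9, which are myeloid and keratinocyte genes, also lacked a promoter peak. Because the chromatin came from bulk culture, acetylation in all cells cannot be told apart from acetylation in a share of them.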

How the data were processed

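SU-CCS-1 chromatin gave 3 H3K27ac ChIP and 3 input samples, grouped by title. Reads were mapped by the authors to hg38 using BWA (0.7.10-r789), with duplicates dropped, broad peaks called by MACS2 (2.2.6) against input and ENCODE denylisted regions removed. The authors deposited 1 merged list whose 4 columns give chromosome, start, end and name. How the merge was made, and the depth behind a peak, are not given by the list. Starts and ends lay on a grid of 10 bases, and width depends on how the caller joins enriched stretches.

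Genes and starts were taken from GENCODE version 44, with genes shared by X and Y counted once. Python (3.11.15) was used to assign, join and rank peaks and to search letters, and was tested on simulated intervals, and matplotlib (3.10.9) to draw the plots. Percentiles are the share of protein-coding genes, or of peaks of the list for a peak width, at or below a value, with ties counted at their middle. The list used holds no value per sample, so nothing was tested. The genes named were all S100 genes, S100-fused genes, listed partners and markers, and genes at or beside a peak. Some of the listed markers, partners and sequence matches are not reported here. The members and lists were chosen with earlier results of these data known. Alternatives changed the promoter window, the starts, the flank, the peaks kept, the overlap rule, the joining distance and the bases scanned.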

Additional observations from a re-analysis of the deposited data

How the results depend on the processing

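Of 62 alternatives over 13 results, 47 stayed within 1.5 times the reported value. With the widest 25% of peaks alone, 4 of the 10 S100 genes (S100A1, S100A10, S100A11 and S100A13) and 5381 protein-coding genes kept a promoter peak, and 6 peaks remained at the S100 genes. With the widest 50%, S100B lost its promoter peak and 2 peaks remained between S100A11 and S100A9. The gene bodies alone held 7 peaks, with 0 kb at S100B and 14.7 kb on chromosome 1 against 25.2 kb with the 20 kb flanks. S100B had 1.01 kb within 10 kb of its body and 7.6 kb within 50 kb, against 4.49 kb, and 24 peaks lay within 50 kb of the 10 genes. Leaving out peaks near start sites left 5 joined regions with S100 peaks. Joining within 5 kb gave S100B a best rank of 2743, and joining at 10 bases under the main distance left 0 regions with a peak of the 10 genes past the slope-1 point. Motif matches fell to 17 with flanks of 10 kb and to 2 in the central 200 bases of each peak. These changes follow from fewer peaks, other windows or a shorter joining distance. No paired analysis was possible because the list used holds no value per sample, and leaving out replicates was not possible for the same reason. The list gives no depth behind a peak, so absence of a peak is not absence of the mark.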
